A study of Mus musculus with 8 samples.

Results

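H3K27ac, the acetylation of lysine 27 on histone H3 that marks active promoters and enhancers, was examined here around the genes Klf4 and Klf5. The members are the merged H3K27ac regions that overlap a window of 200 kb at each gene in build mm9, chr4:55400000-55600000 for Klf4 and chr14:99600000-99800000 for Klf5. These windows were chosen by gene and not by a measured value. They held 8 of the 33920 regions of the series, 7 at Klf4 and 1 at Klf5. A region is the union of all peaks, over all lists, that share at least 1 bp. The 8 regions are made of 38 peaks, 36 at Klf4 and 2 at Klf5.

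The 8 libraries come from 266-6, a mouse pancreatic acinar cell line, and fall into 4 groups of 2. Control cells received a non-targeting siRNA and the vehicle, 0.1% BSA, and are labelled Arid1a-wildtype. EGF cells received the same siRNA and EGF, the ligand of the EGF receptor, at 40 ng/ml. Arid1a knockdown cells received siRNAs against Arid1a, whose product helps SWI/SNF complexes remodel chromatin, and then the vehicle. Knockdown cells with EGF received both agents. In all groups siRNA was used at 25 nM for 48 h by transient transfection, serum was withdrawn overnight, and EGF or vehicle was given for 8 h. The word knockdown names the siRNA used, and the depletion of Arid1a itself was not analysed here. All groups are cultures of 1 line, and the labels do not say whether duplicates were grown apart, so p-values reflect the spread between these libraries alone, which may be technical. Acinar marker genes were not placed on build mm9 and were not analysed here. The lists held 22030 to 28281 peaks covering 33.9 to 48.7 Mb. The first control library, at 22167 peaks, was close to the EGF-treated libraries in length, and the second, at 28281, to the knockdown libraries. Read depth is unknown, so no counting interval is given.

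Klf4 and Klf5 are zinc-finger transcription factors of the Krüppel-like family, which bind GC-rich and CACCC-type sequences. Klf4, one of the factors used to reprogram cells to pluripotency, is known in many epithelia for holding back proliferation during differentiation. Klf5 is known for promoting the growth of epithelial progenitors. In the pancreas both have been linked to the conversion of acinar cells to a duct-like state, a change that EGF receptor signalling can start.

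The set of RefSeq promoter stretches used here held an entry for 1 of the 2 genes, Klf4, so Klf5 could not be shown. The 250 bases before the Klf4 start site are shown because they carry GC-rich elements of the kind this protein family binds. They lie on the minus strand at chr4:55532476-55532725 of build GRCm38.p6, a build whose positions cannot be set against the mm9 positions used for the peaks. Capitals mark each match to GGGCGG on either strand.
Klf4: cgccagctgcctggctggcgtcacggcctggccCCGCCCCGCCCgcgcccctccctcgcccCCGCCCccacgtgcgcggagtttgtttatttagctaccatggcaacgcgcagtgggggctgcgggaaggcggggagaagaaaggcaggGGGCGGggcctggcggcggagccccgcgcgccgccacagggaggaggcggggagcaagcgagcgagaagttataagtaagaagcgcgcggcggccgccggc
The stretch is 74.0% G and C, against a median of 52.4% over 32851 RefSeq promoter stretches of the same length. It holds 4 matches to GGGCGG, 2 of which share a base, and 32.7% of all stretches hold at least 1. The E-box CACGTG was found once, as in 6.0% of all stretches. CACCC (present in 52.0%) and the AP-1 element TGANTCA (in 6.7%) had 0 matches, searched on both strands. These are matches of letters and not measured binding. In the same annotation the nearest genes beside Klf4 are Gm22150, a small nucleolar RNA gene, and Gm12506, a long noncoding RNA gene. Klf5 lies between Pibf1 and the pseudogene Gm22984. Gene models of build mm9 were not used here, so no region below is called a promoter or an enhancer of either gene.

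H3K27ac at Klf4 consisted of 2 regions of middling to high rank and 5 weak ones, while Klf5 had a peak in 2 libraries alone. The Klf4 regions are called Klf4-a to Klf4-g in the order of their position on chromosome 4. Klf4-a spans 55403701 to 55404856, Klf4-b 55433581 to 55434498 and Klf4-c 55483639 to 55484680. Klf4-d spans 55490641 to 55491308 and Klf4-e 55498737 to 55500298, within 1 stretch of the window together with Klf4-c. Gaps of 6.0 kb and 7.4 kb part these 3 regions. Klf4-f spans 55527673 to 55528001 and Klf4-g 55545094 to 55546500. Klf4-g had a peak in all 8 libraries, Klf4-f in 7, Klf4-c and Klf4-e in 6, Klf4-a in 5, Klf4-d in 3 and Klf4-b in 1. Over the whole series 49.0% of regions had a peak in all 8 libraries and 17.0% in 1.

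**Figure D1:**
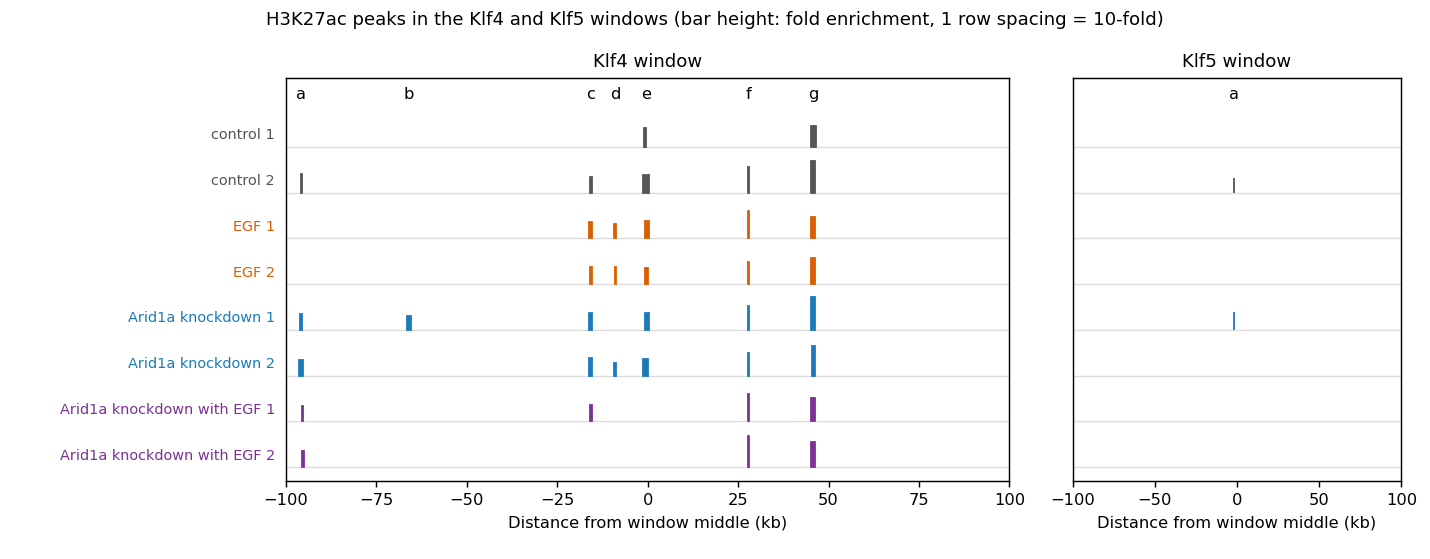
H3K27ac peaks of each library in the 200 kb windows at Klf4 (left) and Klf5 (right), by distance from the window's middle in kb. Bar height is the deposited fold enrichment, bar width the peak's width plus an outline that keeps narrow peaks visible, and letters name the regions. Region e has a peak in 6 libraries and in neither knockdown library with EGF, and the Klf5 window has 2 peaks in all.

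Most of these peaks were weak. Strength is given as the deposited fold enrichment, a ratio over the peak caller's background, and as the −log10 of the caller's q-value. No list held a −log10 q under 1. Of the 38 peaks 14 had a −log10 q under 2, another 9 lay from 2 to 3, and 15 reached at least 3. All 15 belonged to Klf4-f and Klf4-g. A total of 24 peaks scored below the median of their own list. Fold enrichments and scores are the authors' values per list and are used to describe and rank peaks.

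Klf4-g was the region that varied least in presence. Its peak covered 1297 and 1051 bp in the control libraries, 1020 and 953 bp with EGF, 1144 and 812 bp with knockdown, and 1140 and 1053 bp with knockdown and EGF. Both control libraries and both knockdown libraries with EGF lie above both EGF libraries, and the other pairs of groups overlap. The log2 difference in covered length for EGF over both Arid1a states was -0.03 ± 0.14 (SE, limma adjusted p = 0.912), and for knockdown over both EGF states -0.05 ± 0.14 (SE, limma adjusted p = 0.894). The left edge of the peak lay at 55545202 in 3 libraries and within 10 bp of that position in 5 of 8. Over all 8 the starts spread over 448 bp and the ends over 346 bp.

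The fold enrichment of Klf4-g varied between libraries as well. It was 4.52 and 7.01 in the control libraries, 4.71 and 5.72 with EGF, 7.26 and 6.51 with knockdown, and 5.01 and 5.37 with knockdown and EGF. The second control library and both knockdown libraries were the highest, and they are also the 3 longest lists. Within its own list the peak stood at the 46.3 percentile of score in the first control library and between the 52.4 and 78.3 percentile in the others. No test was made on fold enrichments, because the lists differ in length and each carries its own background.

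Klf4-f combined a middling to high fold enrichment with a very small width. It had no peak in the first control library and covered 251 bp in the second. The EGF libraries had 276 and 232 bp, the knockdown libraries 212 and 273 bp, and the knockdown libraries with EGF 258 and 303 bp. The 7 libraries that held it differed by less than 100 bp. Both knockdown libraries with EGF lie above both control libraries, and the other pairs of groups overlap. Its fold enrichment was 5.63 in the second control library, 6.03 and 4.90 with EGF, 5.30 and 5.02 with knockdown, and 5.97 and 6.72 with knockdown and EGF. In contrast to Klf4-g, the highest value was in a knockdown library with EGF and not in a long list.

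In width these peaks ranked between the 1.8 and 6.3 percentile of their lists, and in fold enrichment between the 52.7 and 79.8 percentile. Among peaks as narrow as Klf4-f in the same list, 0.54% to 2.01% had as high a fold enrichment, and the median fold of such narrow peaks was 3.53 to 3.86. The log2 difference for EGF over both Arid1a states was 0.36 ± 0.33 (SE, limma adjusted p = 0.469).

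**Figure D2:**
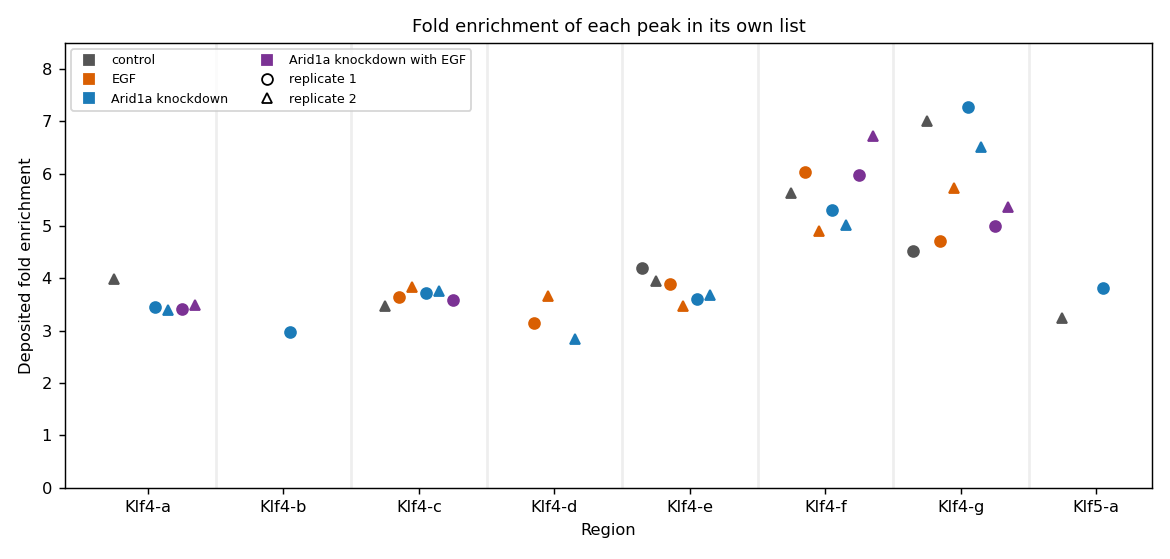
Deposited fold enrichment of each peak (vertical axis, a ratio over the caller's background) in the 8 regions (horizontal axis), with colours for groups and symbols for replicates. Klf4-f and Klf4-g lie between 4.52 and 7.26, while the peaks of the other regions lie between 2.85 and 4.2.

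Klf4-e was the 1 region of the 8 that passed a test, with less covered sequence when EGF was added to knockdown cells. It covered 571 and 1552 bp in the control libraries, 939 and 764 bp with EGF, and 1123 and 1447 bp with knockdown. Neither knockdown library with EGF had a peak there. Those 2 libraries thus lie below all 6 others. Both knockdown libraries without EGF lie above both EGF libraries, and the control libraries overlap each of these groups. With EGF, covered length fell by 2.88 ± 0.43 on the scale of log2(covered bp + 200) in knockdown cells (SE, limma adjusted p = 0.0216). As both knockdown libraries with EGF stood at 0 bp, the size depends on the pseudocount, the 200 bp added before the log. With 50 bp added the difference was -4.73 (limma adjusted p = 0.0125), and with 1000 bp -1.19 (limma adjusted p = 0.043). Both zeros also add no spread of their own to the SE. Of the 7 members tested, Klf4-e was the 1 called in this comparison, and limma called 6.62% of all 28146 tested regions. Klf4-b, with a peak in 1 library, was not tested.

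The same region gave other values for the other contrasts. In Arid1a-intact cells the log2 difference with EGF was -0.15 ± 0.43 (SE, limma adjusted p = 0.909), and 0 of the 7 members passed, against 3.95% of all regions. The difference between these EGF effects was -2.73 ± 0.61 (SE) but did not pass (limma adjusted p = 0.201), in a test that called 0.0% of all regions (0 calls, with 2525 regions at an unadjusted p under 0.05). An EGF effect on Klf4-e that differs with Arid1a state is therefore not shown here. The value was -3.33 without the second control library and -2.14 without the first. Averaged over both states, covered length fell by 1.52 ± 0.31 with EGF (SE, limma adjusted p = 0.0299), again the 1 member called, against 13.0% of all regions. That mean joins -2.88 and -0.15.

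Among EGF-treated cells, the log2 difference of Klf4-e with knockdown was -2.39 ± 0.43 and did not pass (SE, limma adjusted p = 0.0909). In that comparison 0 of 7 members were called and 0.661% of all regions. Without EGF the knockdown difference was 0.34 ± 0.43 (SE, limma adjusted p = 0.773), with 0 of 7 members and 1.37% of all regions called. A peak in the other 6 libraries and in neither knockdown library with EGF was found in 242 regions, 0.713% of all. The same pattern for the EGF group was found in 230 regions, for control in 90 and for knockdown in 20.

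The peaks that made up Klf4-e were weak, with fold enrichments of 4.2 and 3.95 in control, 3.90 and 3.48 with EGF, and 3.60 and 3.69 with knockdown. Their −log10 q lay between 1.61 and 2.66, and their scores ranked between the 8.7 and 31.2 percentile of their lists. The lists of the knockdown libraries with EGF held 22030 and 23256 peaks. The first control library, at 22167, and the EGF libraries, at 22361 and 23080, were of like length and did hold the peak. What part list length plays in this absence was not tested beyond these values. When every list was reduced to its 22030 highest-scoring peaks, Klf4-e dropped out of the first knockdown library, and its log2 difference with EGF in knockdown cells became -1.52 (limma adjusted p = 0.428). The call was also lost on leaving out either EGF, either knockdown or either knockdown library with EGF. Each such fit leaves 1 library in a group, and its log2 difference, at the pseudocount of 200 bp, lay between -3.04 and -2.73. The mean EGF effect lost its call with lists of equal length, at -0.84 (limma adjusted p = 0.444). It lay between -1.81 and -1.22 on leaving out each library in turn.

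Klf4-d and Klf4-c, the regions next to Klf4-e, also had weak peaks and passed no test. Klf4-d had no peak in control cells, 420 and 268 bp with EGF, 0 and 603 bp with knockdown, and none with knockdown and EGF. By presence it counts as gained with EGF in Arid1a-intact cells, where 2.0% of all regions were gained and 4.26% lost. It counts as lost with knockdown among EGF-treated cells. The log2 differences were 1.43 ± 0.65 (SE, limma adjusted p = 0.329) and -1.43 ± 0.65 (SE, limma adjusted p = 0.545). Its −log10 q was 1.15, 1.88 and 1.03 in the 3 libraries that held it, and in the knockdown library its score ranked at the 0.2 percentile.

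Klf4-c covered 0 and 698 bp in control, 826 and 728 bp with EGF, 842 and 859 bp with knockdown, and 339 and 0 bp with knockdown and EGF. Both EGF libraries and both knockdown libraries lie above both libraries that received knockdown and EGF, while the control libraries, at 0 and below the lowest of those 4, overlap the latter. The log2 difference with EGF in knockdown cells was -1.68 ± 0.80 (SE, limma adjusted p = 0.263). For the difference between the EGF effects the values were -2.88 ± 1.13 at Klf4-c (SE, limma adjusted p = 0.528) and -2.43 ± 0.92 at Klf4-d (SE, limma adjusted p = 0.502). All 3 neighbouring regions thus had their least covered length with knockdown and EGF, Klf4-d together with control, and of these Klf4-e alone passed a test.

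Klf4-a, at the far edge of the window, had its longest covered stretches with knockdown. It covered 0 and 207 bp in control, no sequence with EGF, 686 and 987 bp with knockdown, and 387 and 385 bp with knockdown and EGF. All 4 knockdown libraries lie above all 4 others. The log2 difference for knockdown over both EGF states was 1.70 ± 0.31 and did not pass (SE, limma adjusted p = 0.0707), with 0 of 7 members and 0.352% of all regions called. It was 1.85 ± 0.44 without EGF (SE, limma adjusted p = 0.136) and 1.55 ± 0.44 with EGF (SE, limma adjusted p = 0.236). Without the second control library, the only other one with a peak, the values were 1.95 over both EGF states and 2.36 without EGF. Removing that peak was bound to raise both values. Without the first control library the value without EGF was 1.33. With lists of equal length neither knockdown library without EGF kept its peak, and the difference without EGF turned to -0.51 (limma adjusted p = 0.597).

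The peaks of Klf4-a did not all lie on the same bases. The first knockdown peak shared 12 and 0 bp with the peaks of the knockdown libraries with EGF, and the second 238 and 216 bp, so the region joins neighbouring stretches. Their fold enrichments ran from 3.40 to 3.99, highest in the second control library, whose peak was also the narrowest. Klf4-b was a single peak of 918 bp in the first knockdown library, with a fold enrichment of 2.97 and a −log10 q of 1.004, at the lower end of that list.

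**Figure D3:**
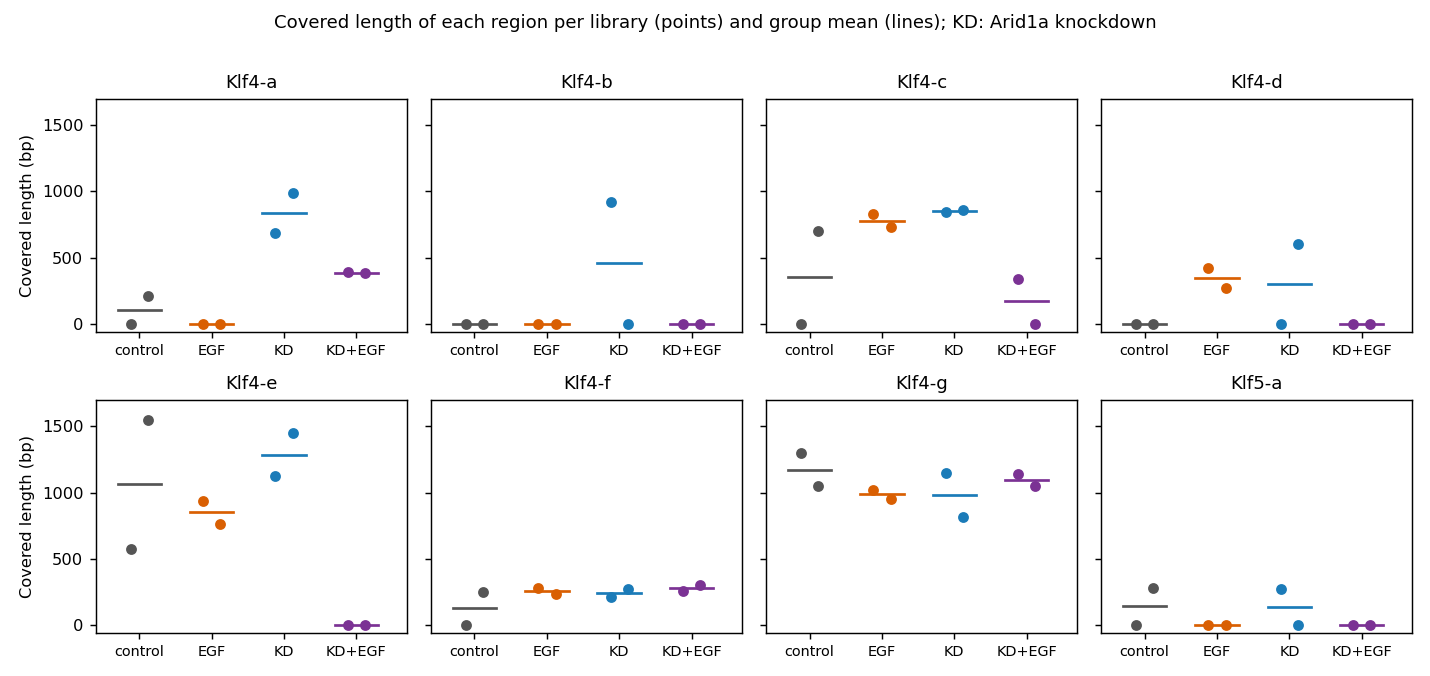
Covered length in bp (vertical axis) of the 8 regions in each library (points) with group means (lines), for control, EGF, Arid1a knockdown (KD) and knockdown with EGF (KD+EGF). Klf4-g lies between 812 and 1297 bp in all groups, Klf4-e is at 0 in both KD+EGF libraries, and Klf4-a reaches at least 385 bp in the 4 knockdown libraries and at most 207 bp in the others.

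Counted by presence, where gained means a peak in both libraries of the first group and in neither of the second, few members were gained or lost. With EGF in Arid1a-intact cells 1 of 8 members was gained (Klf4-d) and 0 were lost. With lists of equal length Klf4-d kept a peak in 1 EGF library and was not gained, and Klf4-c was. With EGF in knockdown cells 0 were gained, against 0.996% of all regions, and 1 was lost (Klf4-e), against 8.4%. With knockdown and no EGF 0 members were gained or lost, against 3.04% and 0.778% of all regions. With knockdown among EGF-treated cells 1 was gained (Klf4-a), against 2.02%, and 2 were lost (Klf4-d and Klf4-e), against 2.34%. The sets of 2 libraries in these comparisons are shared, so the losses of Klf4-e in 2 comparisons rest on the same absence. The median log2 difference over the 7 tested members was -0.81 for EGF in knockdown cells, against -0.32 over all regions, and 0.56 for knockdown without EGF, against 0.18. For EGF in Arid1a-intact cells it was -0.15, against -0.14.

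Summed over its 200 kb, the Klf4 window was most covered in knockdown cells and least in knockdown cells with EGF. It held 1868 and 3759 bp in control, 3481 and 2945 bp with EGF, 4925 and 4981 bp with knockdown, and 2124 and 1741 bp with knockdown and EGF. In order, the group means were 4953 ± 39.6 bp with knockdown, 3213 ± 379 bp with EGF, 2813.5 ± 1337 bp in control and 1932.5 ± 270.8 bp with knockdown and EGF (SD, n = 2 each). The knockdown libraries lie above all others. EGF and control overlap, as do control and knockdown with EGF, while the EGF libraries lie above the knockdown libraries with EGF. As a share of all sequence covered in its library, the window took 104.3 ± 2.8 bp of each covered Mb with knockdown, 92.8 ± 14 bp with EGF, 67.0 ± 17.8 bp in control and 54.7 ± 10.4 bp with knockdown and EGF (SD, n = 2 each), the same order.

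None of these differences passed when all 7186 windows of 200 kb with a peak in at least 2 libraries were tested. In knockdown cells the log2 difference of the Klf4 window with EGF was -1.28 ± 0.30 (SE, limma adjusted p = 0.0595), in a comparison that called 4.79% of windows. In Arid1a-intact cells the difference was 0.25 ± 0.30 (SE, limma adjusted p = 0.701), with 0.195% of windows called. The difference between these EGF effects was -1.53 ± 0.43 (SE, limma adjusted p = 0.809). Knockdown gave 0.85 ± 0.30 without EGF (SE, limma adjusted p = 0.365) and -0.68 ± 0.30 with EGF (SE, limma adjusted p = 0.537), where 0.0% and 0.0139% of windows were called. The mean EGF effect was -0.51 ± 0.22 (SE, limma adjusted p = 0.127), against 18.0% of windows called, and the mean knockdown effect 0.08 ± 0.22 (SE, limma adjusted p = 0.892). Limma called 0 windows for knockdown without EGF, for the mean knockdown effect and for the difference between EGF effects, with 912, 1209 and 365 windows at an unadjusted p under 0.05.

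Fits with 1 control library left out rest on a single control, so effect sizes alone are given. Without the first control library the mean EGF effect was -0.75, and without the second -0.28. The knockdown difference without EGF was 0.38 without the first and 1.32 without the second. The difference between EGF effects was -1.06 and -2.0 in the same order. Control is not part of the EGF difference in knockdown cells, which stayed at -1.28. With lists of equal length none of the 7 comparisons passed, and the values were -0.47 for EGF in knockdown cells (limma adjusted p = 0.305), 0.18 for knockdown without EGF (limma adjusted p = 0.779) and -0.77 for the difference between EGF effects (limma adjusted p = 0.697). The mean EGF effect was then -0.08 (limma adjusted p = 0.787). The control libraries held 2 and 5 peaks in the window, the widest gap within a group. Restricted to peaks with a −log10 q of at least 3, which leaves Klf4-f and Klf4-g, the EGF difference in knockdown cells was 0.16 (limma adjusted p = 0.569), so the group order of the window rests on the weak regions.

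At Klf5 a single region of 394 bp, on chromosome 14 from 99697962 to 99698355, was found in 2 libraries. The second control library covered 279 bp there and the first knockdown library 272 bp. Their fold enrichments were 3.25 and 3.82, with −log10 q of 1.52 and 2.52. The other 6 libraries, including all 4 that received EGF, had no peak in the window. No group held the peak in both of its libraries. The mean EGF effect was -0.62 ± 0.40 for the region (SE, limma adjusted p = 0.314) and -0.62 ± 0.51 for the whole window (SE, limma adjusted p = 0.387). The absence of a peak says that no stretch passed the caller's limit, not that acetylation was absent.

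The surroundings of Klf5 held few peaks in these libraries. The next peak to the left of the window lay 100.2 to 101.0 kb away in all 8. To the right it lay 177.7 kb away in the second control library and 542.2 to 882.8 kb away in the others. In the 6 libraries without a peak in the window, the stretch free of peaks thus ran over 842.8 to 1183 kb. Around the Klf4 window the next peaks lay 13.8 to 14.7 kb to the left and 58.4 to 64.1 kb to the right.

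Within a library the Klf4 window was always covered more than the Klf5 window. In the 2 libraries where both had a peak the log2 ratio of Klf5 to Klf4 was -3.75 and -4.18, so that Klf4 had 13.5 and 18.1 times the covered sequence of Klf5. Among the 7487 windows of 200 kb with any peak, Klf4 stood at the 52.8 percentile of mean covered length, with 3228 bp against a median of 2934 bp, and Klf5 at the 3.1 percentile with 68.9 bp. A peak in all 8 libraries was found in 79.6% of these windows, as at Klf4, and a peak in 2 libraries in 2.76%, as at Klf5.

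**Figure D4:**
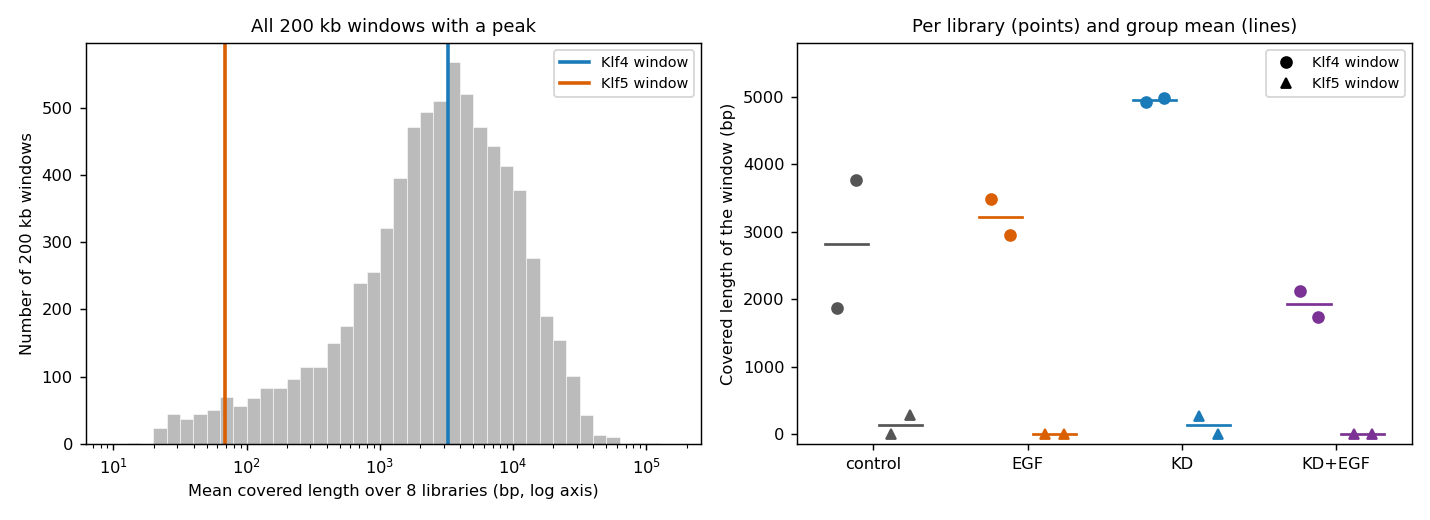
Left, number of 200 kb windows by mean covered length over the 8 libraries (bp, log axis), with lines at the Klf4 window (3228 bp) and the Klf5 window (68.9 bp). Right, covered length in bp of both windows in each library (points) with group means (lines), where Klf4 is highest with knockdown (KD, 4925 and 4981 bp) and Klf5 reaches at most 279 bp.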

How the data were processed

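The deposited data are H3K27ac ChIP-seq peaks of 8 libraries, 2 for each of 4 groups taken from the labels. Each library has a peak list of its own among the deposited files, none of them pooled. Build mm9 and the tools MACS2 2.1.1.20160309.0, Bowtie2 2.3.4.2, deepTools 3.0.2 and SAMtools are named, per the submitters' processing notes, which state no role. Caller settings and any input library stand as not given in the sources used here. In the lists the authors deposited, the score of a peak is 10 times its −log10 q, rounded down, the fold enrichment is the peak caller's ratio over its own background, and −log10 p served here to break ties between scores.

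Peaks sharing at least 1 bp were merged, and covered bp per region or per 200 kb window (tiled from position 1) went into limma 3.58.1 in R 4.3.3 (moderated test, trended prior) on log2(covered bp + 200). A mean per group, all 8 libraries, features with a peak in at least 2 libraries and Benjamini-Hochberg adjustment over all of them were used, with a threshold of 0.05. Fold differences are understated for short peaks. Both locus windows are tiles of that grid. Python 3.11.15 with pandas 2.3.3, NumPy 2.4.6 and matplotlib 3.10.9 did the other steps. Interval steps and limma were tested on simulated data.

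Named regions are all those past the threshold or gained or lost by presence, the widest with a peak in all libraries and the 3 highest in score rank per window. The members, lists and tests were chosen with earlier results of these data known. The planned lists of Krüppel-like genes and cell type markers need gene positions in mm9 and were not analysed here. Replicate numbers were not used to pair the libraries in the main fit.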

Additional observations from a re-analysis of the deposited data

How the results depend on the processing

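Of 685 alternative values, 588 stayed the same, 15 lost a call, 12 gained one, 47 counts moved and 23 values changed sign. A log2 difference was the same if it kept its direction and side of the threshold. A count of members was the same if equal or close. The 588 include counts of 0 that stayed at 0. They also include differences that could not change because the library left out was outside the contrast. The lists hold nothing below the peak caller's limit and their depth is unknown, which limits what can be said of weak peaks. All p-values are limma's with Benjamini-Hochberg adjustment, and the cause of these changes was not tested. With peaks of −log10 q of at least 3, which include none at Klf4-a to Klf4-e or Klf5, those regions gave no value. The Klf4 window then gave log2 differences of -0.06 for EGF with Arid1a intact, 0.16 for EGF in knockdown cells, -0.08 for knockdown with vehicle, 0.13 for knockdown with EGF, 0.05 for the mean EGF effect and 0.22 for the difference between EGF effects. In that setting 0 members were called, gained or lost in any comparison. Lists of equal length gave -0.21 for the mean knockdown effect on the Klf4 window, and for knockdown with vehicle -1.02 at Klf4-e and -0.51 at Klf4-a. They left 0 members called for EGF in knockdown cells or for the mean EGF effect, against 1653 and 3454 of 24987 regions. By presence they gave 1 member gained with EGF and Arid1a intact (Klf4-c in place of Klf4-d), 0 lost and 1 gained (Klf4-a) with EGF in knockdown cells, 1 gained (Klf4-c) with knockdown and vehicle, and 1 lost (Klf4-e) with knockdown among EGF-treated cells. Scaling to the total covered length gave -0.05 for the mean knockdown effect on the Klf4 window, 0.04 for EGF with Arid1a intact at Klf4-e and 0.23 for the mean EGF effect at Klf4-g. It called 1 member, Klf4-e, for knockdown among EGF-treated cells (adjusted p = 0.0355), as did a pseudocount of 50 bp (adjusted p = 0.0329). Of all 28146 regions, these settings called 349 and 508. A pseudocount of 1000 bp called 0 members for the mean EGF effect, and 3631 of 28146 regions. Quantile normalization gave mean EGF effects of 0.07 for the Klf5 window, 0.33 at Klf4-g and 0.02 at Klf5-a. Requiring 50% of a region to be covered gave 0 members gained with EGF and Arid1a intact, 3 lost with EGF in knockdown cells (Klf4-a, Klf4-c and Klf4-e), 1 gained with knockdown and vehicle (Klf4-a), and 0 gained and 1 lost (Klf4-c) with knockdown among EGF-treated cells. Shares of all regions gained or lost were not computed for this or any other alternative setting, so these member counts have no background. Leaving out each library in turn gave the Klf4 window -0.22 to 0.72 for EGF with Arid1a intact, -1.41 to -1.15 for EGF in knockdown cells, 0.38 to 1.32 for knockdown with vehicle, -0.75 to -0.28 for the mean EGF effect, -0.15 to 0.32 for the mean knockdown effect and -2.0 to -1.06 for the difference between EGF effects. At Klf4-e it gave -0.74 to 0.44 for EGF with Arid1a intact and -0.25 to 0.94 for knockdown with vehicle, and at Klf4-g -0.13 to 0.08 for the mean EGF and -0.15 to 0.05 for the mean knockdown effect. Calls that these fits lost or gained are part of the counts of lost and gained calls given above. Each of these fits leaves 1 library in a group, so effect sizes alone are listed here. Members gained ran from 1 to 3 with EGF and Arid1a intact, 0 to 3 with knockdown and vehicle and 0 to 1 (Klf4-a) with knockdown over both EGF states. Members lost ran from 0 to 2 with EGF and Arid1a intact and from 1 to 3 with EGF in knockdown cells. Leaving out a library only loosens the rule for presence, so these counts could not fall. Klf4-e was thus bound to remain among the members lost with EGF in knockdown cells, which says nothing of its stability. Same-numbered libraries did not deviate together in covered length (correlations of -0.00929 to 0.0317 across regions). This cannot tell whether they were prepared together. With the replicate block, the log2 difference of Klf4-e with EGF in knockdown cells stayed at -2.88 (adjusted p = 0.0439) and its mean EGF effect at -1.52 (adjusted p = 0.0425), and no call at either locus changed.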
